A study of Mus musculus with 6 samples.

Results

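The synapsins Syn1, Syn2 and Syn3, the vesicle tetraspans Syp, Syngr1 and Syngr3, and the SV2 glycoproteins Sv2a, Sv2b and Sv2c are 9 genes of synaptic vesicle proteins, measured here in brain synaptosome RNA of knock-in and wild-type mice. They were taken as every non-control probe carrying one of these symbols, which gave 16 of the 55681 different non-control probes, each printed as 1 spot per array. Of the 16 probes, 14 stood clearly over background, by the scanner's own flag, on 3 or more of the 6 arrays and were tested, and 12 did so on all 6. All 9 genes kept a probe and stood among the 20975 genes tested.

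Synaptic vesicles store neurotransmitter in the nerve terminal. Synapsins are phosphoproteins on the outer face of the vesicle that bind actin and hold vesicles in a reserve pool, from which phosphorylation by calcium- and cAMP-dependent kinases releases them. Synaptophysin and the synaptogyrins span the vesicle membrane 4 times, and the SV2 proteins are glycosylated membrane proteins related to sugar transporters, which bind synaptotagmin and are receptors for botulinum neurotoxin A. Synaptosomes are nerve terminals that shear off and reseal when brain is homogenised, so vesicle proteins are abundant in them, while most of the corresponding mRNA is made and kept in the neuronal cell body.

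The series had 3 knock-in and 3 wild-type samples, each hybridised to a one-colour Agilent array labelled with Cy3. The labels name the groups knock-in and wild type in the sample names and the design, but give knock-out as the genotype of the knock-in samples. The altered allele, strain, age and sex, and whether each sample came from its own animal, are not given in the sources used here, so p-values measure only how far these samples spread, and that spread may be technical. All samples were labelled as total RNA with an integrity number of 10, and the labelling input was recorded as 0.2 µg except for knock-in replicate 1, recorded as 0.0 µg.

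The knock-in arrays and wild-type replicate 3 shared slide 1, and wild-type replicates 1 and 2 were on slide 2. The 75th percentile of processed signal was 883 to 910 on the knock-in arrays, against 823 on wild-type replicate 3 and 578 and 580 on the wild-type arrays of slide 2. Fmr1, the mouse gene of the transcript named in the series title, had relative levels (log2 signal above that percentile) of 2.08 to 2.27 on the knock-in arrays and 1.33 to 1.42 on the wild-type arrays, a difference of 0.82 (SE 0.10, limma adjusted p = 0.198). All 8 markers of nerve terminals were well above background on all 6 arrays, as were all 7 astrocyte, 6 oligodendrocyte and 7 microglia markers. The groups did not overlap for 3 of the 7 microglia, 2 of the 7 astrocyte, 1 of 5 endothelial and 1 of 5 hippocampal markers, against 20.3% of all genes, and for 0 of the 6 oligodendrocyte markers, whose mean difference was 0.35; 0 markers of any list passed the threshold in limma's fit. Markers of striatal medium spiny neurons differed most between arrays, with a summed linear level of 58.3 to 322 on the knock-in arrays and 51.3 to 227 on the wild-type arrays.

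The transcripts were read through 60-base probes, and 30 bases are shown of those whose position the results turn on. Each lies on the strand of its transcript, 5′ to 3′, as printed on the array, and coordinates are those of the whole probe in the array annotation on mouse build mm9. Capitals mark AATAAA, the canonical signal for mRNA 3′ end formation, which was searched on the probe strand and occurs in 2 of the 16 probes (12.5%), against 10.1% of all probes. Syn1 has a single probe, as do Syp, Syngr3, Sv2a and Sv2b, whose probes are not shown. Syn2 and Syn3 are shown because the Syn2 probes are annotated to 2 splice forms, and the Syn3 probes lie far apart in the gene.
Syn1, chrX:20437641-20437700, minus strand, probe bases 27 to 56: gtcgggaagcaaAATAAAcaagcaaaggcc
Syn2 variant IIa, chr6:115231474-115231533, plus strand, bases 1 to 30: tagtctttaagagctttattctgaagtcat
Syn2 variant IIb, chr6:115226390-115226449, plus strand, bases 1 to 30: acacttttgtcacagtgtagggtttctgtt
Syn3 variant 1, chr10:85518277-85518336, minus strand, bases 1 to 30: gccaaggctgagacaatccgcaacctgagg
Syn3 Ensembl transcript, chr10:85813890-85813949, minus strand, bases 30 to 59: cagtgtaattttAATAAAaactgtgttatt
The Syngr1 probes are also annotated to different variants. Exon positions were not at hand, so whether each probe reads only its own variant was not checked. The Sv2c probes lie at separate positions of a transcript whose level varied between arrays.
Syngr1 variant 1a, chr15:79949191-79949250, plus strand, bases 1 to 30: agagatcctttgagagaatcctatttcatc
Syngr1 variant 1b, chr15:79941040-79941099, plus strand, bases 1 to 30: atgtgtacttcccgcagatcagcagtgtca
Sv2c from base 2128, chr13:96745986-96746045, minus strand, bases 1 to 30: aatccatgatgataggcatgctgtgcttgt
Sv2c from base 4136, chr13:96729454-96729513, minus strand, bases 1 to 30: ctgtttctcatccctgggaaacaaatctgt

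None of the 9 genes differed between knock-in and wild-type synaptosomes past the threshold of 0.05 in limma's fit over all 20975 genes, where 2 genes did (0.00954%). At an unadjusted p under 0.05 the count was also 0 of 9, against 10.9% of all genes, and for 0 of 9 did the 2 groups of arrays fail to overlap, against 20.3% of all genes. The adjusted p-values of the 9 genes lay between 0.522 and 0.946. On the log2 scale 5 differences (knock-in minus wild type) were positive and 4 negative, with a median of 0.03, beside a median of -0.05 over all genes.

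Relative levels below are log2 processed signals minus the log2 75th percentile of their array, and processed signals are background-subtracted brightness before any scaling between arrays. Each gene is represented by its brightest tested probe. In a bulk preparation, fewer terminals or cells of a type and less RNA in each cannot be told apart.

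**Figure D1:**
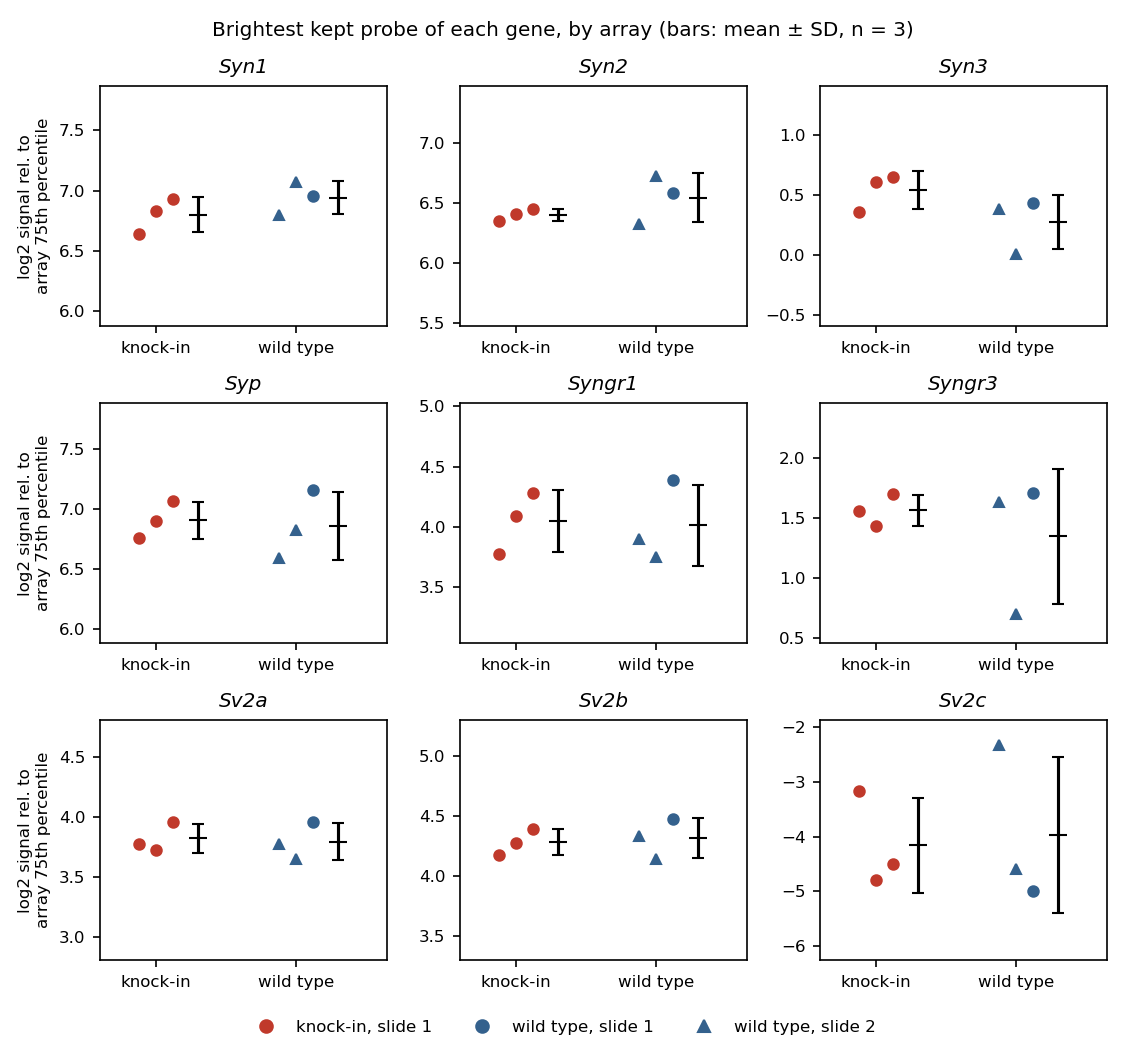
Relative level (log2 processed signal minus the log2 75th percentile of the array, vertical axis) of the representing probe of each gene on the 3 knock-in and 3 wild-type arrays, with mean ± SD beside the points. Circles are arrays of slide 1 and triangles arrays of slide 2; the panels span 2 log2 units except Sv2c, whose points lie between -4.99 and -2.33. The groups overlap in all 9 panels.

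Syn1 encodes synapsin I, the major vesicle phosphoprotein of mature terminals. Its probe, at base 3149 of the transcript, gave processed signals of 88211, 103207 and 110853 on the knock-in arrays and 64416, 77935 and 101828 on the wild-type arrays. Relative levels were 6.64, 6.83 and 6.93 in knock-in, against 6.80, 7.07 and 6.95 in wild type. Knock-in replicate 1 was lowest and wild-type replicate 2 highest, and the groups overlapped. The means were 6.80 ± 0.15 in knock-in, against 6.94 ± 0.14 in wild type (SD, n = 3 each), a difference of -0.14 (SE 0.12) and a fold of 0.907 with a 95% interval of 0.737 to 1.12 (limma adjusted p = 0.638). Against wild-type replicate 3 alone, on the same slide, the difference was -0.15, while it was -0.0383 after quantile normalization and -0.0133 in the authors' value table.

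Syn2 encodes synapsin II, whose 2 splice forms differ in their C-terminal part. The IIb probe represented the gene, with relative levels of 6.35, 6.41 and 6.45 in knock-in, against 6.32, 6.72 and 6.59 in wild type. The knock-in values lay close together, between the lowest and the middle wild-type value. The difference was -0.14 (SE 0.13), a fold of 0.907 (95% interval 0.733 to 1.12, limma adjusted p = 0.643), and -0.18 against wild-type replicate 3 alone. It was -0.0369 after quantile normalization, -0.0202 in the authors' value table and -0.00194 as the mean of both Syn2 probes.

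The IIa probe of Syn2 had relative levels of 2.74, 2.92 and 2.89 in knock-in, against 2.69, 2.60 and 2.85 in wild type. Its knock-in values reached higher than the wild-type ones but overlapped with them, and its difference was 0.14 (SE 0.12, adjusted p = 0.634 in limma's fit over all 29318 tested probes). Over all 6 arrays the point estimates of the IIa and IIb probes had opposite signs, but against wild-type replicate 3 alone the IIa difference was -0.00146, so there the signs were not opposite. A difference within each array removes a constant scaling between arrays, but not an effect that depends on brightness. The IIa probe minus the IIb probe was -3.61, -3.49 and -3.56 in knock-in, against -3.64, -4.12 and -3.73 in wild type. All 3 knock-in values were above all 3 wild-type values, by 0.28 on average. The exact two-sided permutation p was 0.1, the smallest that 3 against 3 arrays allow, or 0.3 adjusted over the 6 probe pairs of these genes. Without wild-type replicate 2, the farthest array, the difference was 0.13, and against wild-type replicate 3 alone it was 0.18. Over all 6 arrays it was 0.263 after normexp correction, 0.200 after quantile normalization and 0.160 in the authors' value table. Of all 5940 genes with at least 2 tested probes, 20.2% had such a separation between groups for the same kind of difference.

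Syn3 encodes synapsin III, a form best known from early neuronal development and adult neurogenesis. Its brightest probe, at base 1933 of variant 1, gave processed signals of 1135, 1384 and 1432 in knock-in, against 754, 586 and 1109 in wild type. Relative levels were 0.36, 0.61 and 0.65 in knock-in, against 0.38, 0.01 and 0.43 in wild type. Knock-in replicates 2 and 3 exceeded every wild-type array, and knock-in replicate 1 lay among the wild-type values. The difference was 0.26 (SE 0.15), a fold of 1.20 (95% interval 0.932 to 1.55), the lowest adjusted p of the 9 genes by limma at 0.522. It was 0.11 against wild-type replicate 3 alone.

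The other 3 Syn3 probes were dim. The probe to an Ensembl transcript, at base 1382, was well above background on 1 knock-in and 2 wild-type arrays, with processed signals of 28.2, 24.9 and 31.1 in knock-in, against 21.2, 33.5 and 38.1 in wild type. Relative levels were -4.97, -5.19 and -4.87 in knock-in, against -4.77, -4.11 and -4.43 in wild type. All knock-in values were below all wild-type values, which held for 1 of the 14 tested probes of these genes and for 19.9% of all tested probes. Its difference was -0.57 (SE 0.19) and its fold 0.673 (95% interval 0.490 to 0.924) (adjusted p = 0.458 in limma's probe fit). An unadjusted p under 0.05 was reached by 1 of the 14 probes and by 10.4% of all probes, and the adjusted threshold by 0 of 14, against 0.00682% of all probes. It was not well above background on the other 3 arrays.

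Measured against the bright Syn3 probe within each array, the Ensembl probe was at -5.33, -5.79 and -5.53 in knock-in, against -5.15, -4.13 and -4.86 in wild type. The groups did not overlap, with a difference of -0.84 between groups and -0.69 against wild-type replicate 3 alone. The exact two-sided permutation p was 0.1, the smallest possible here, or 0.3 adjusted. Such a separation held for 20.2% of the 5940 genes with at least 2 tested probes. The probe to variant 2 of Syn3, at base 3385, was not tested, since it was well above background on 1 array of each group. Its processed signals were 61.4, 5.27 and 5.71 in knock-in, against 4.05, 4.26 and 225 in wild type, so single arrays stood apart in both groups. The probe to the cDNA clone, at base 4373, was not well above background on any array and read 4.51 to 6.94 in knock-in, against 3.84 to 5.15 in wild type.

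**Figure D2:**
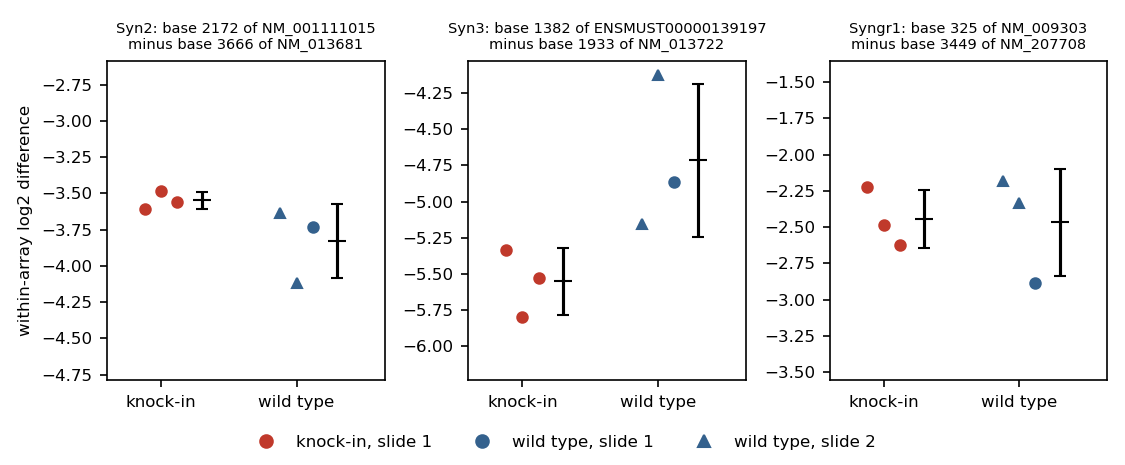
Within-array log2 difference of 2 probes of one gene (dimmer minus brighter, vertical axis) on the 3 knock-in and 3 wild-type arrays, with mean ± SD; circles are slide 1 and triangles slide 2. For Syn2 the knock-in arrays sit above the wild-type arrays, for Syn3 below them, and for Syngr1 the groups overlap; the exact permutation p is 0.1, 0.1 and 1.

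Syp encodes synaptophysin, the most widely used marker of synaptic vesicles. Processed signals were 95267, 108030 and 121410 in knock-in, against 55860.4, 65567 and 117166 in wild type. Relative levels were 6.75, 6.89 and 7.06 in knock-in, against 6.59, 6.82 and 7.15 in wild type. The highest and the lowest array were both wild type. The difference was 0.05 (SE 0.17), a fold of 1.03 (95% interval 0.779 to 1.37, limma adjusted p = 0.913). It was -0.25 against wild-type replicate 3 alone and 0.20 without that array.

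Syngr1 encodes synaptogyrin 1, a relative of synaptophysin in the same membrane family. The probe to variant 1a read 3.77, 4.09 and 4.28 in knock-in, against 3.89, 3.75 and 4.39 in wild type, so that the 2 groups covered nearly the same range. Its difference was 0.04 (SE 0.21), a fold of 1.03 (95% interval 0.722 to 1.46, limma adjusted p = 0.946). Against wild-type replicate 3 alone it was -0.34, and without that array 0.23. The probe to variant 1b read 1.55, 1.60 and 1.66 in knock-in, against 1.71, 1.41 and 1.51 in wild type, a difference of 0.06 (SE 0.12, limma adjusted p = 0.831). Whether the 1b probe reads only its variant was not checked, so its difference from the 1a probe need not be a ratio of variants. Within arrays, the 1b probe minus the 1a probe was -2.22, -2.49 and -2.62 in knock-in, against -2.18, -2.34 and -2.88 in wild type. These overlapped, and the difference was 0.02 (exact two-sided permutation p = 1).

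Syngr3 encodes synaptogyrin 3, a vesicle protein that in mice binds the dopamine transporter. Processed signals were 2603, 2456 and 2945 in knock-in, against 1794, 942 and 2680 in wild type. Relative levels were 1.56, 1.43 and 1.69 in knock-in, against 1.63, 0.70 and 1.70 in wild type. Wild-type replicate 2 stood below all other arrays, and the remaining wild-type values lay at the top of the knock-in range. The difference was 0.22 (SE 0.28), a fold of 1.16 (95% interval 0.735 to 1.84, limma adjusted p = 0.736). It was -0.11 without wild-type replicate 2 and -0.14 against wild-type replicate 3 alone.

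Sv2a encodes the SV2 form found at most synapses and bound by the antiepileptic drug levetiracetam. Relative levels were 3.78, 3.73 and 3.96 in knock-in, against 3.77, 3.65 and 3.95 in wild type. Replicate 3 was the highest array of each group, and the groups overlapped. The difference was 0.03 (SE 0.12), a fold of 1.02 (95% interval 0.830 to 1.25, limma adjusted p = 0.928), and -0.13 against wild-type replicate 3 alone. Processed signals ranged between 12026 and 14175 in knock-in and between 7276 and 12752 in wild type.

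Sv2b encodes the form of SV2 enriched in the cortex and hippocampus. Relative levels were 4.18, 4.28 and 4.40 in knock-in, against 4.33, 4.14 and 4.47 in wild type. Wild type held both the highest and the lowest array. The difference was -0.03 (SE 0.12), a fold of 0.978 (95% interval 0.795 to 1.20, limma adjusted p = 0.918), and -0.19 against wild-type replicate 3 alone. Processed signals ranged between 15977 and 19175 in knock-in and between 10261 and 18281 in wild type.

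**Figure D3:**
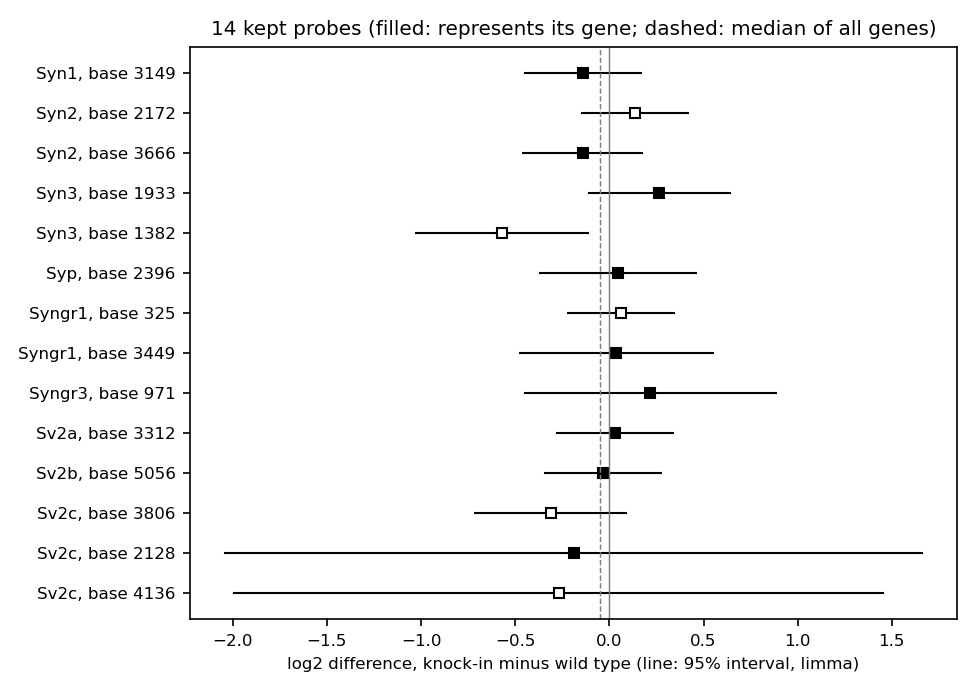
Log2 difference, knock-in minus wild type, of the 14 tested probes with its 95% interval from limma's fit over all probes; each probe is named by gene and by its first base in the transcript. Filled squares represent their gene, and the dashed line is the median of all genes at -0.05. The interval of the Syn3 probe at base 1382 lies below 0, and the intervals of the Sv2c probes at bases 2128 and 4136 are the widest.

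Sv2c encodes the SV2 form concentrated in the basal ganglia and other evolutionarily old brain regions. It varied most between arrays, with an SD over the 6 arrays of 1.07, against 0.198 for the median gene; 1.42% of all genes had an SD above 1. The representing probe, at base 2128, gave processed signals of 98.1, 32.6 and 40.0 in knock-in, against 115, 24.2 and 25.8 in wild type. Relative levels were -3.17, -4.80 and -4.51 in knock-in, against -2.33, -4.59 and -4.99 in wild type. One array of each group, replicate 1, was high and the other 4 were low. The difference was -0.19 (SE 0.77), with a fold of 0.876 whose 95% interval ran from 0.244 to 3.15 (limma adjusted p = 0.922).

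The probe at base 4136 of Sv2c was high on replicate 1 of both groups too, and also on wild-type replicate 2. It read -3.74, -4.63 and -5.04 in knock-in, against -3.29, -3.48 and -5.82 in wild type, a difference of -0.27 (SE 0.72, limma adjusted p = 0.881). It was not well above background on 1 wild-type array. The third probe, at base 3806 of a cDNA, read -4.37, -4.72 and -4.46 in knock-in, against -3.92, -4.37 and -4.32 in wild type. It varied less, with a difference of -0.31 (SE 0.17, limma adjusted p = 0.523) and overlapping groups. The 3 pairs of Sv2c probes, compared within arrays, overlapped between groups, with exact permutation p-values of 0.8 to 1.

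The arrays with the highest Sv2c signal at base 2128 also had the highest levels of striatal medium spiny neuron markers. Summed over the 12 markers, the linear level relative to the 75th percentile was 322, 127 and 58.3 in knock-in, against 227, 51.3 and 53.9 in wild type. All 12 markers were measured, 10 were well above background on all 6 arrays, and 0 of 12 separated the groups, against 20.3% of all genes. Knock-in replicate 2 was intermediate in these markers and had the lowest knock-in value of Sv2c. Choroid plexus markers summed to 1.85, 1.29 and 0.462 in knock-in, against 1.75, 0.492 and 0.383 in wild type, and 4 of the 6 were well above background on all arrays. Clic6 was at 0.19, -2.38 and -4.51 in knock-in, against 0.03, -4.49 and -4.64 in wild type. It was the highest of these markers only on replicate 1 of each group. On knock-in replicate 2 the highest was Ttr, at -0.50. The list did not move as one: Ttr and Folr1 were lowest on knock-in replicate 1 among the knock-in arrays, and Kcnj13 was lowest on wild-type replicate 1 among the wild-type arrays. Without replicate 1 of both groups, an alternative chosen after seeing the data, the Sv2c difference was 0.14 (SE 0.21, limma adjusted p = 0.787). Against wild-type replicate 3 alone it was 0.83 (SE 1.00, limma adjusted p = 0.973). The part of either marker group in the Sv2c values was not tested.

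**Figure D4:**
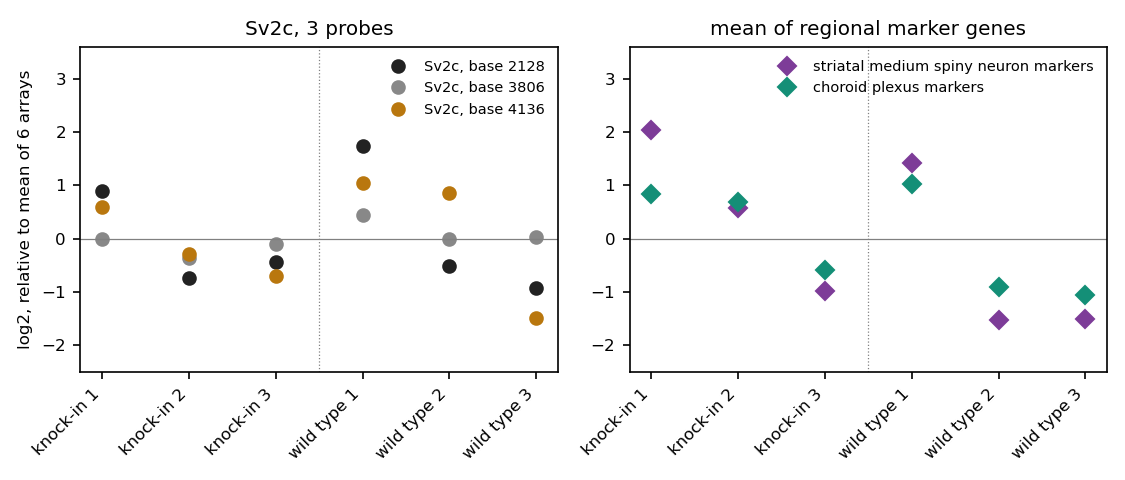
Left, log2 level of the 3 Sv2c probes relative to each probe's mean over the 6 arrays; right, the mean of the 12 striatal and 6 choroid plexus marker genes on the same scale. Knock-in replicate 1 and wild-type replicate 1 are high in the Sv2c probe at base 2128 and in both marker means, while knock-in replicate 2 is above the mean in the markers and below it in Sv2c.

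The other 8 genes shared their highest knock-in array, and in each of them wild-type replicate 3 lay above wild-type replicate 1. How many of all genes share the latter order was not counted. Knock-in replicate 3 was the highest knock-in array for all 8 of them and not for Sv2c, against 38.2% of all genes. Knock-in replicate 1 was the lowest knock-in array for 6 of the 9, against 41.5% of all genes. Wild-type replicate 3 was the highest wild-type array for 6 of the 9 (Syn3, Syp, Syngr1, Syngr3, Sv2a and Sv2b), against 26.7% of all genes. Wild-type replicate 2 was the highest wild-type array for Syn1 and Syn2, but the lowest for Syn3, Syngr1, Syngr3, Sv2a and Sv2b. Nerve terminal markers other than these genes had mean levels, relative to their own average, of -0.07, -0.07 and 0.04 in knock-in against 0.03, 0.06 and -0.000654 in wild type. The groups separated for 0 of these 8 markers, against 20.3% of all genes. Several of these markers are also among the vesicle cargo genes counted below. The part of these markers in the array values was not tested.

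Because slide 2 held wild-type arrays only, slide was followed by setting the 3 knock-in arrays against replicate 3 of wild type. Of the 9 genes, 7 were then lower in knock-in, against 2, Syn3 and Sv2c, higher, while 56.3% of all genes were lower. The median difference was -0.15, beside -0.03 over all genes. The adjusted p-values by limma lay between 0.973 and 0.979, and the wild-type side of this comparison is 1 array. Syp, Syngr1, Syngr3, Sv2a and Sv2c had another sign in it than over all 6 arrays.

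Precision differed between the genes. The SE was below the 0.144 of the median gene for 4 of the 9 (Syn1, Syn2, Sv2a and Sv2b), for which the 95% intervals ran from 0.733-fold to 1.25-fold. The intervals of Syp and Syngr1 ran from 0.722-fold to 1.46-fold, that of Syngr3 reached 1.84-fold, and that of Sv2c included both a 3.15-fold higher level and a level of 0.244 times that of wild type.

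The genes whose array pattern was most like that of Syn1, among 14389 named genes outside the 9, were Snph, Adora1 and Map4k2. Snph encodes syntaphilin, a mitochondrial docking protein of axons, and Adora1 the adenosine A1 receptor. After each gene was centred on its mean over 6 arrays, their root mean square distances from Syn1 were 0.0130, 0.0154 and 0.0167 log2 units. Snph read 5.43, 5.66 and 5.75 in knock-in, against 5.62, 5.88 and 5.78 in wild type, so the lowest and the highest array were those of Syn1. For Sv2c, Gsx2 and Adamts3 were among the nearest genes, at distances of 0.284 and 0.343. Gsx2 and Adamts3 were well above background on 3 arrays each. With 6 arrays and this many genes searched, such closeness is a description only.

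Relatives of the same membrane families were compared in the same fit. Of 11 measured tetraspan, SCAMP and SVOP genes (Svopl had no tested probe), 0 passed the threshold in either direction and 1 had an unadjusted p under 0.05; 3 differences were positive and 8 negative, with a median of -0.06. Of all genes, 10.9% had such a p and 59.1% were negative. For 3 of the 11, Syngr4, Scamp4 and Syngr2, the groups did not overlap, against 20.3% of all genes. Syngr4, another synaptogyrin, read -2.48, -2.41 and -2.60 in knock-in, against -2.27, -1.94 and -2.20 in wild type (difference -0.36, SE 0.12, limma adjusted p = 0.433). Syngr2, the synaptogyrin of non-neuronal cells, read 2.17, 2.14 and 2.15 in knock-in, against 1.95, 2.05 and 1.93 in wild type (difference 0.18, SE 0.09, limma adjusted p = 0.502). Scamp4 differed by -0.24 and Scamp3, whose groups overlapped, by -0.12 (limma adjusted p = 0.466 and 0.703).

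Of the 17 kinases and phosphatases that act on synapsins, all measured, 0 passed the threshold and 2 had an unadjusted p under 0.05; 4 differences were positive and 13 negative, with a median of -0.09, beside the same 59.1% negative among all genes. The groups did not overlap for 4 of the 17, against 20.3% of all genes, and the share of all genes at an unadjusted p under 0.05 was 10.9%, so both counts are near the background. Ppp3cb, a catalytic subunit of calcineurin, which dephosphorylates synapsin I, averaged 4.05 ± 0.08 in knock-in, against 4.37 ± 0.06 in wild type (SD, n = 3 each; difference -0.31, SE 0.10, limma adjusted p = 0.414). Cdk5, which phosphorylates synapsin I, differed by -0.25 (limma adjusted p = 0.459), and Camk4, whose groups overlapped, by -0.23 (limma adjusted p = 0.498). Ppp3ca, also without overlap and named after its values were seen, differed by -0.11 (limma adjusted p = 0.615). Of 22 other vesicle cargo genes and partners, 0 passed the threshold, 0 had an unadjusted p under 0.05 in limma's fit, and 0 separated the groups; 8 were positive and 14 negative, with a median of -0.07. The smallest p-values among them were those of Vamp1, a vesicle SNARE (difference -0.43, limma adjusted p = 0.567), Syt1, the calcium sensor of fast release (-0.23, limma adjusted p = 0.572), Slc17a8 (-0.32) and Syt2 (-0.32).

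The promoters were searched for letters that known regulators of neuronal genes bind. RefSeq promoters of build GRCm38.p6, from 250 bases before to 50 after the start, were at hand for 7 of the 9 genes (11 promoters); Syn3 and Syngr3 had none. Searched on both strands were TTCAGCACC, the left part of the site of the silencer REST, found in 1 of these 11 and in 0.371% of 32851 promoters; TGACGTCA, the cAMP response element, in 1 of 11 and 1.79%; and GCGGGGGCG, the EGR site, in 2 of 11 and 2.91%. The motifs do not overlap with each other and are capitalised here, and each is a match of letters and not evidence of binding.
Syn1 REST site, left part, 232 bases before the start, chrX:20921132-20921161, minus strand: gcactgtcggaTTCAGCACCgcggtcagag
Syn1 cAMP response element, 159 bases before the start, chrX:20921059-20921088, minus strand: caaaggctgacTGACGTCActcactagccc
Syn2 EGR site, 41 bases before the start, chr6:115134850-115134879, plus strand: cgcgcgagtagGCGGGGGCGgagcaggctc
Syngr1 EGR site, 11 bases before the start, chr15:80091312-80091341, plus strand: caggggaggggGCGGGGGCGccgcgcacgc
Syn1, with the first pair of motifs, and Syn2, with the third, differed by -0.14 each between groups, and Syngr1 by 0.04, none past the threshold.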

How the data were processed

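Per the file headers, the scanner software was Agilent Feature Extraction 10.7.3.1. It gave each spot a processed intensity on a linear scale, background-subtracted and not normalized between arrays. A table of log2 values deposited by the authors has columns that rank spots as the raw median intensity of the same array does (Spearman correlation 1.0), with medians of 6.55 to 6.56. Its scaling method was not found in the labels or headers, and it served as an alternative. Total RNA was extracted by the acid phenol method and amplified with a low-input kit, per the labels' protocols.

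Here control spots were left out, log2 processed intensities were taken relative to the 75th percentile of each array, and probes well above background on at least 3 of 6 arrays were kept (29318). A gene is its brightest kept probe over all arrays, chosen without regard to group (20975 genes). Other genes were named through RefSeq of assembly GRCm38.p6 (27235 probes by accession), used for names only. The group comparison used limma 3.58.1 under R 4.3.3 (lmFit, eBayes, two-sided, Benjamini-Hochberg over all genes or all probes), which was tested on simulated data. Single values were compared by exact permutation. Precision is limited by 3 arrays per group; 52.9% to 55.7% of spots per array stood well above background, with 0 saturated. From each related list the genes named are the 4 of smallest p; array patterns were matched for Syn1 and for the gene of largest SD. Some genes that these rules name are not reported here. Members, lists, motifs and rules were chosen with earlier results of these data known. Alternatives covered background correction, normalization, filters, probe choice, slide, a replicate block, array weights and leaving out arrays.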

Additional observations from a re-analysis of the deposited data

How the results depend on the processing

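Under 19 alternative settings, 0 of the 9 genes passed the threshold, and the lowest adjusted p of any of them was 0.387 (Syn2 without wild-type replicate 1, limma); genes called among all genes numbered 0 to 7, against 2. The related lists also held 0 called genes under each of them. Of 171 differences, 28 changed sign, all of genes without a call. With slide as a fixed block the values were -0.25 for Syp, -0.34 for Syngr1, -0.14 for Syngr3, -0.13 for Sv2a and 0.83 for Sv2c. With array weights they were -0.0291 for Syp, -0.0681 for Syngr1, -0.0282 for Syngr3 and -0.0712 for Sv2a. Sv2b was 0.0283 after normexp correction, 0.0213 after quantile normalization and 0.0582 in the authors' value table, and Syn3 was -0.15 as the mean of its probes. Syn1 and Syn2 kept their sign but came nearer to 0, at -0.0383 and -0.0369 after quantile normalization and -0.0133 and -0.0202 in the authors' value table; Syn1 was -0.0834 after normexp correction, and Syn2 was -0.00194 as the mean of its probes. Without replicate 1 of both groups, chosen after seeing the data, Syp was -0.0105, Sv2b 0.0290 and Sv2c 0.14.

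Leaving out 1 array at a time, the differences ranged from -0.21 to -0.06 for Syn1, -0.25 to -0.05 for Syn2, 0.13 to 0.35 for Syn3, -0.0851 to 0.20 for Syp, -0.0937 to 0.23 for Syngr1, -0.11 to 0.40 for Syngr3, -0.0431 to 0.11 for Sv2a, -0.12 to 0.0459 for Sv2b and -0.70 to 0.63 for Sv2c; the Syn2 difference between IIa and IIb probes ranged from 0.13 to 0.38. The causes were not tested.

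Whether the replicate numbers pair the samples was not settled. Deviations of same-numbered arrays correlated at 0.40, -0.02 and 0.25, and those of differently numbered arrays at -0.40 to 0.15. With the replicate block the differences were as before (Sv2c -0.19, adjusted p = 0.725 by limma), with 0 of the 9 genes and 0 genes in all called. Of the dimmest tested probes, that of Syn3 at base 1382 was well above background on 3 of 6 arrays, and the Sv2c probes at bases 2128 and 3806 on all 6; the part of background in their spread was not tested.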
